A study of Gallus gallus with 10 samples.

Results

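A set of 148 chicken genes was counted at similar levels in the induced and the natural optic tectum and at much lower levels in the cerebral cortex. They were selected on measured levels from 24881 chicken genes, by a rule on CPM, the counts of a gene per 1000000 counts on all chicken genes of that library. For a member, the mean of the induced tectum (iTeO) and the mean of the natural tectum (TeO) were each at least 4 times the mean of the natural chicken cerebral cortex (NCC). In addition, the TeO mean was at least 2 CPM, the ratio of the iTeO mean to the TeO mean lay between 0.5 and 2, and the lowest of the 7 iTeO and TeO values exceeded the highest NCC value. The differences between tectum and cortex, and the nearness of iTeO to TeO, are the values by which these genes were chosen, and they are given as a description without a test.

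Total RNA was sequenced from wild-type chicken tissue, with 4 libraries of iTeO, 3 of TeO and 3 of NCC. The iTeO is ectopic brain tissue of the host that grew after neuroepithelial cells (NECs) made from human pluripotent stem cells were implanted in place of a piece of the anterior diencephalon of HH11 embryos. In 2 libraries the implant came from human embryonic stem cells, named iTeO (ES), and in 2 from human induced pluripotent stem cells, named iTeO (iPS). TeO and NCC are the natural tissues, and the sources used here do not state whether their embryos carried implants or how many embryos a library holds. For chimeric embryos the methods give one general time of dissection, late in development, and none for these libraries in particular. p-values thus measure the spread between libraries, which may in part be technical.

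The optic tectum is the layered roof of the avian midbrain and the main target of retinal axons. It is patterned by the isthmic organizer, a signalling centre at the border of midbrain and hindbrain that secretes FGF8, and its neurons form layers that process visual input. The cerebral cortex belongs to the telencephalon, a forebrain region that is patterned by other signals and expresses other transcription factors. Genes that are high in tectum and low in cortex can in principle mark midbrain neurons, tissue outside the telencephalon in general, or cell types that are more frequent in tectum, such as myelinating glia. The files give Ensembl identifiers without gene names, and 0 of them matched the gene table used here, so neither these roles nor the marker genes of tectum, cortex and other cell types could be assigned, and the labelled tissues were not checked against markers. Identifiers are given for few genes, and the others are described by their rank.

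Counts on chicken genes summed to between 7809002 and 11615474 per library. The top chicken gene of each library took 13.3% to 15.2% of them in iTeO and at least 18.5% in TeO and NCC. Whether it was the same gene in all libraries was not checked. Such a gene enters the total that CPM are scaled by, so a lower share of it raises the CPM of the other genes. The median ratio of iTeO to TeO over the 13999 tested genes was 1.16 with CPM and 1.0 after trimmed mean (TMM) scaling, a shift of 0.20 on the log2 scale. How much of this shift came from the top gene was not tested. The first replicates of both kinds of iTeO stood apart by counts on human genes, at 0.371% of all counts for ES and 0.299% for iPS. In the second replicates these shares were 0.129% and 0.124%, and over TeO and NCC they were 0.123% to 0.137%. Without both first replicates the rule gave 154 genes, of which 142 were among the 148.

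All 148 genes together held 0.588% to 0.663% of the chicken counts in iTeO, 0.604% to 0.617% in TeO and 0.0764% to 0.0949% in NCC. Their summed level was 6165 ± 324 CPM in iTeO (SD, n = 4), 6115 ± 66.4 CPM in TeO (SD, n = 3) and 828 ± 104 CPM in NCC (SD, n = 3). The sums in the iTeO libraries were 6115 and 5879 CPM in iTeO (ES) and 6036 and 6628 CPM in iTeO (iPS). In TeO they were 6041, 6170 and 6134 CPM, inside the range of iTeO with this scaling. With TMM scaling, for which sums were not computed, the median ratio of iTeO to TeO over members was 0.963 against 1.11. In NCC the sums were 771, 764 and 949 CPM. The third NCC library was thus the highest of its group, with a share of 0.0949% of the chicken counts (95% Wilson interval 0.0931% to 0.0967%) against 0.0771% (0.0755% to 0.0787%) and 0.0764% (0.0748% to 0.0780%). It also held the highest NCC value of 59 members, against 34 and 46 in the first and second libraries. The 9 members with no read in NCC were left out of these member counts. Over all tested genes the third library was the highest for 30.1%, the first for 33.3% and the second for 36.6%. The sums weigh the abundant members most. The gene of rank 3 by TeO mean alone had 46.7, 55.9 and 128 CPM in NCC. The median over members was 0.775, 0.840 and 0.902 CPM in the NCC libraries. PCR copies are not separate molecules, and the intervals hold counting error alone. In bulk tissue, fewer cells of a type and less RNA per cell cannot be told apart.

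**Figure D1:**
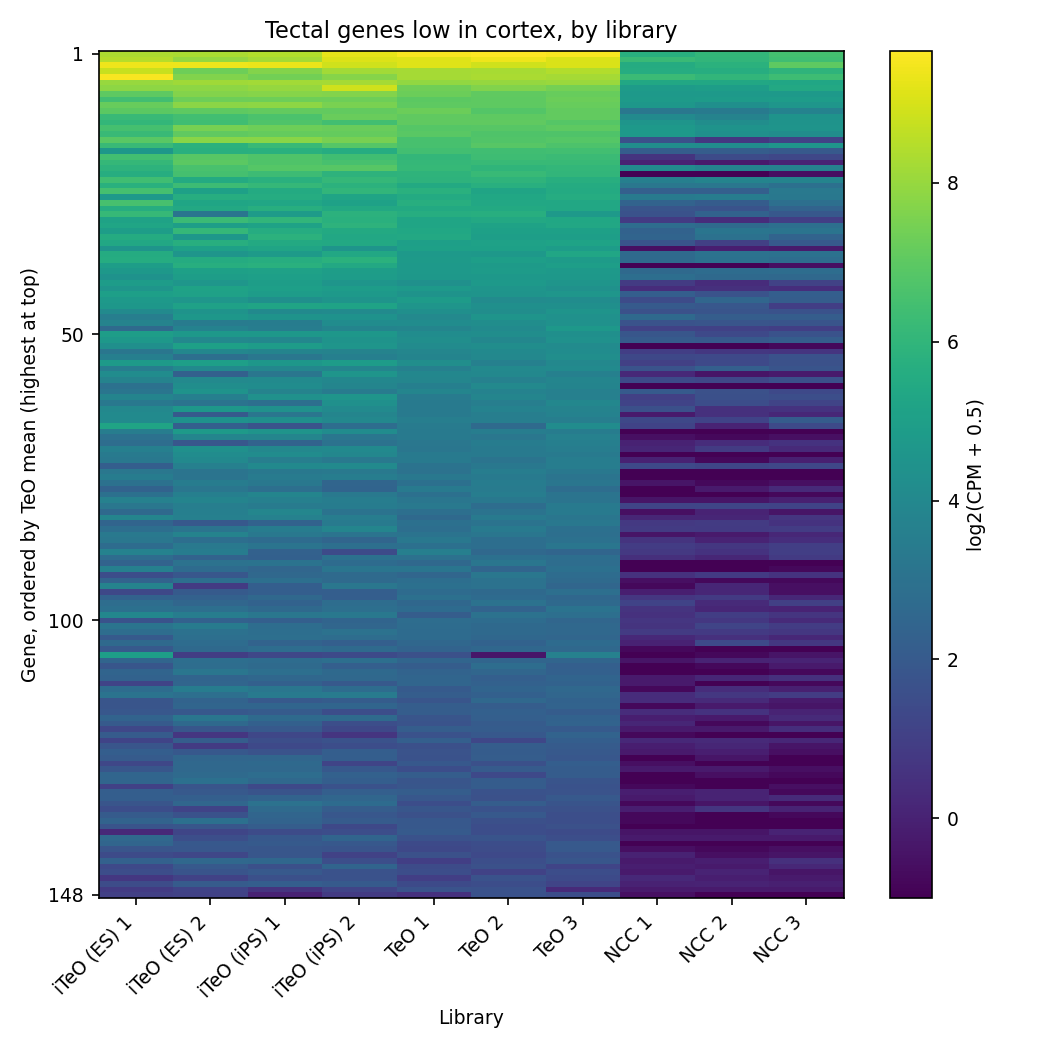
Level of each of the 148 genes (rows, ordered by TeO mean) in each of the 10 libraries (columns), as log2(CPM + 0.5) in colour. The 7 iTeO and TeO columns have similar colours in most rows, and the 3 NCC columns are darker in every row, with the darkest rows at no count in NCC.

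The criteria were applied in order, first to TeO. In TeO, 255 genes had a mean of at least 2 CPM and at least 4 times the NCC mean. Of these, 163 also had an iTeO mean of at least 4 times the NCC mean, and 92 did not. A further 11 genes fell out because iTeO was under 0.5 times TeO, and 1 because it was over 2 times TeO. Of the remaining 151 genes, 3 had a tectal library within the range of NCC. Both tecta were set against the same NCC libraries, so these counts are no independent evidence of likeness. All 148 members passed the filter on low counts of the test across genes. The lowest tectal value lay above the highest NCC value for 20% of the tested genes, and by the rule for every member.

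The levels of the members spanned a wide range. The TeO means ran from 2.04 to 771 CPM, with a median of 9.19 and quartiles of 4.67 and 28.2. The iTeO means ran from 1.24 to 625 CPM, with a median of 10.6. In NCC the median was 0.854 CPM and the highest mean 76.9 CPM. By TeO mean, 41 members were under 5 CPM, 62 between 5 and 20 CPM, 28 between 20 and 100 CPM and 17 above. The median level was thus low. The count in the lowest tectal library of each member had a median of 64 reads. In at least 1 tectal library, 5 members had under 10 reads.

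The size of the gap to cortex varied far more than the rule required. Ratios were taken with the NCC mean set to no less than 3 counts over the 3 libraries. Over members, the median ratio was 7.72 for TeO to NCC (quartiles 5.57 and 26.7) and 8.60 for iTeO to NCC (quartiles 5.79 and 27.3). Both ratios were at least 8 for 67 members, at least 16 for 47 and at least 32 for 28. At the other end, the genes on either side of the limit had nearly equal ratios. The 2 members just inside it had iTeO to NCC ratios of 4.006 and 4.010, and the 2 genes just outside it, which met all other criteria, had 3.982 and 3.981. The lowest tectal value was at least 4 times the highest NCC value for 81 members and under 2 times for 13.

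The widest gap was that of ENSGALG00000043204. It had 49.9 and 90.9 CPM in iTeO (ES), 78.2 and 59.7 CPM in iTeO (iPS), and 61.3, 72.9 and 63.8 CPM in TeO. No read fell on it in NCC replicates 1 and 2, and 2 reads, or 0.180 CPM, in NCC replicate 3. Its lowest tectal value was 184 times the level of 3 counts in that NCC library, and iTeO and TeO overlapped. The TeO mean was 1122 times the NCC level from these 2 reads, with a counting interval of 310.5 to 9262. The size of this ratio is therefore poorly known.

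ENSGALG00000029270 came next. Its levels were 67.9 and 127 CPM in iTeO (ES), 104 and 93.4 CPM in iTeO (iPS), 67.7, 73.3 and 72.5 CPM in TeO, and 0.517, 0.354 and 0.541 CPM in NCC. In iTeO 3 of 4 libraries were above every TeO library, and iTeO (ES) replicate 1 was within the TeO range. The TeO mean was 151 times the NCC level (95% counting interval 93.2 to 265, from 16 reads in NCC), and the iTeO mean 209 times (128 to 365). In both genes iTeO (ES) replicate 1 was the lowest iTeO library and iTeO (ES) replicate 2 the highest.

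A further 9 members had no read in any NCC library. In all, 30 members, these 9 among them, had at most 3 reads in each. The 9 genes had means of 2.67 to 13.6 CPM in TeO and 2.997 to 19.6 CPM in iTeO. Against a floor of 3 counts over the NCC libraries, or 0.0882 CPM, they were at least 30.3-fold to at least 154-fold higher in TeO and at least 34.0-fold to at least 222-fold higher in iTeO. The highest of them in TeO had 7.31 and 18.5 CPM in iTeO (ES), 17.7 and 13.9 CPM in iTeO (iPS) and 11.8, 15.6 and 13.4 CPM in TeO. The highest in iTeO had 10.8 and 27.8 CPM in iTeO (ES), 22.2 and 17.5 CPM in iTeO (iPS) and 9.83, 11.1 and 10.8 CPM in TeO. Here again iTeO (ES) replicate 1 was the lowest iTeO library, and the other 3 were above the TeO libraries in the second gene only.

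**Figure D2:**
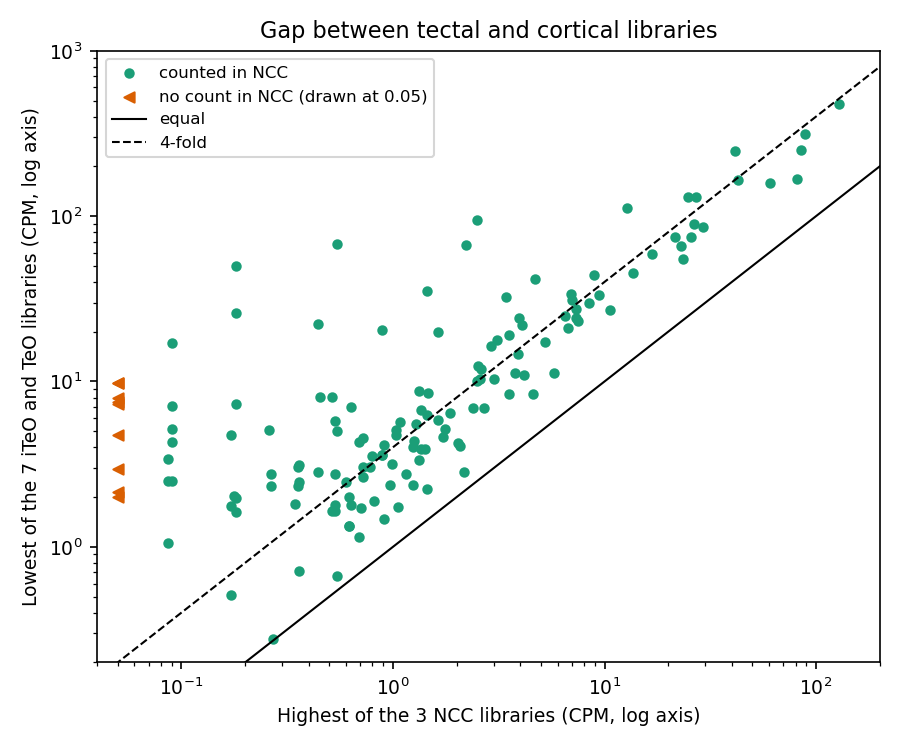
Lowest CPM among the 7 iTeO and TeO libraries against the highest CPM among the 3 NCC libraries for each of the 148 genes, both on log axes. Triangles at the left are the 9 genes with no count in NCC, and 81 genes lie on or above the 4-fold line once NCC is set to no less than 3 counts.

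The most abundant members were not among those with the widest gaps. The gene with the highest TeO mean had 744, 811 and 757 CPM in TeO, 331 and 316 CPM in iTeO (ES), 346 and 609 CPM in iTeO (iPS) and 51.8, 66.5 and 88.8 CPM in NCC. All iTeO libraries were below all TeO libraries and above all NCC libraries. At 0.520, its ratio of iTeO to TeO was the lowest of all members. The gene of rank 2 by TeO mean had 573, 670 and 539 CPM in TeO, 351 and 252 CPM in iTeO (ES), 302 and 551 CPM in iTeO (iPS) and 74.3, 64.9 and 84.6 CPM in NCC. In both genes iTeO (iPS) replicate 2 was well above the other 3 iTeO libraries.

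By CPM the gene of rank 3 was higher in most iTeO than in TeO libraries. It had 681 and 679 CPM in iTeO (ES), 661 and 477 CPM in iTeO (iPS), 567, 478 and 532 CPM in TeO and 46.7, 55.9 and 128 CPM in NCC. Its ratio of iTeO to TeO was 1.19 with CPM and 1.03 with TMM scaling. Here iTeO (iPS) replicate 2 was the lowest iTeO library, and NCC replicate 3 was well above both other NCC libraries. The genes of rank 4 and 5 had their highest level in iTeO (ES) replicate 1. Rank 4 had 434 and 159 CPM in iTeO (ES), 207 and 287 CPM in iTeO (iPS), 299, 306 and 349 CPM in TeO and 47.9, 49.7 and 60.3 CPM in NCC. Rank 5 had 758 and 199 CPM in iTeO (ES), 168 and 213 CPM in iTeO (iPS), 301, 318 and 296 CPM in TeO and 75.8, 64.1 and 80.9 CPM in NCC. Without iTeO (ES) replicate 1 every iTeO value of the rank 4 and rank 5 genes was below the TeO values. In the rank 5 gene those remaining iTeO values were also each under 4 times the NCC mean of 73.6 CPM. That gene thus met the rule only through iTeO (ES) replicate 1. The gene of rank 6 was even among all tectal libraries, with 257 to 299 CPM in iTeO, 247 to 266 CPM in TeO and 39.6 to 41.5 CPM in NCC.

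**Figure D3:**
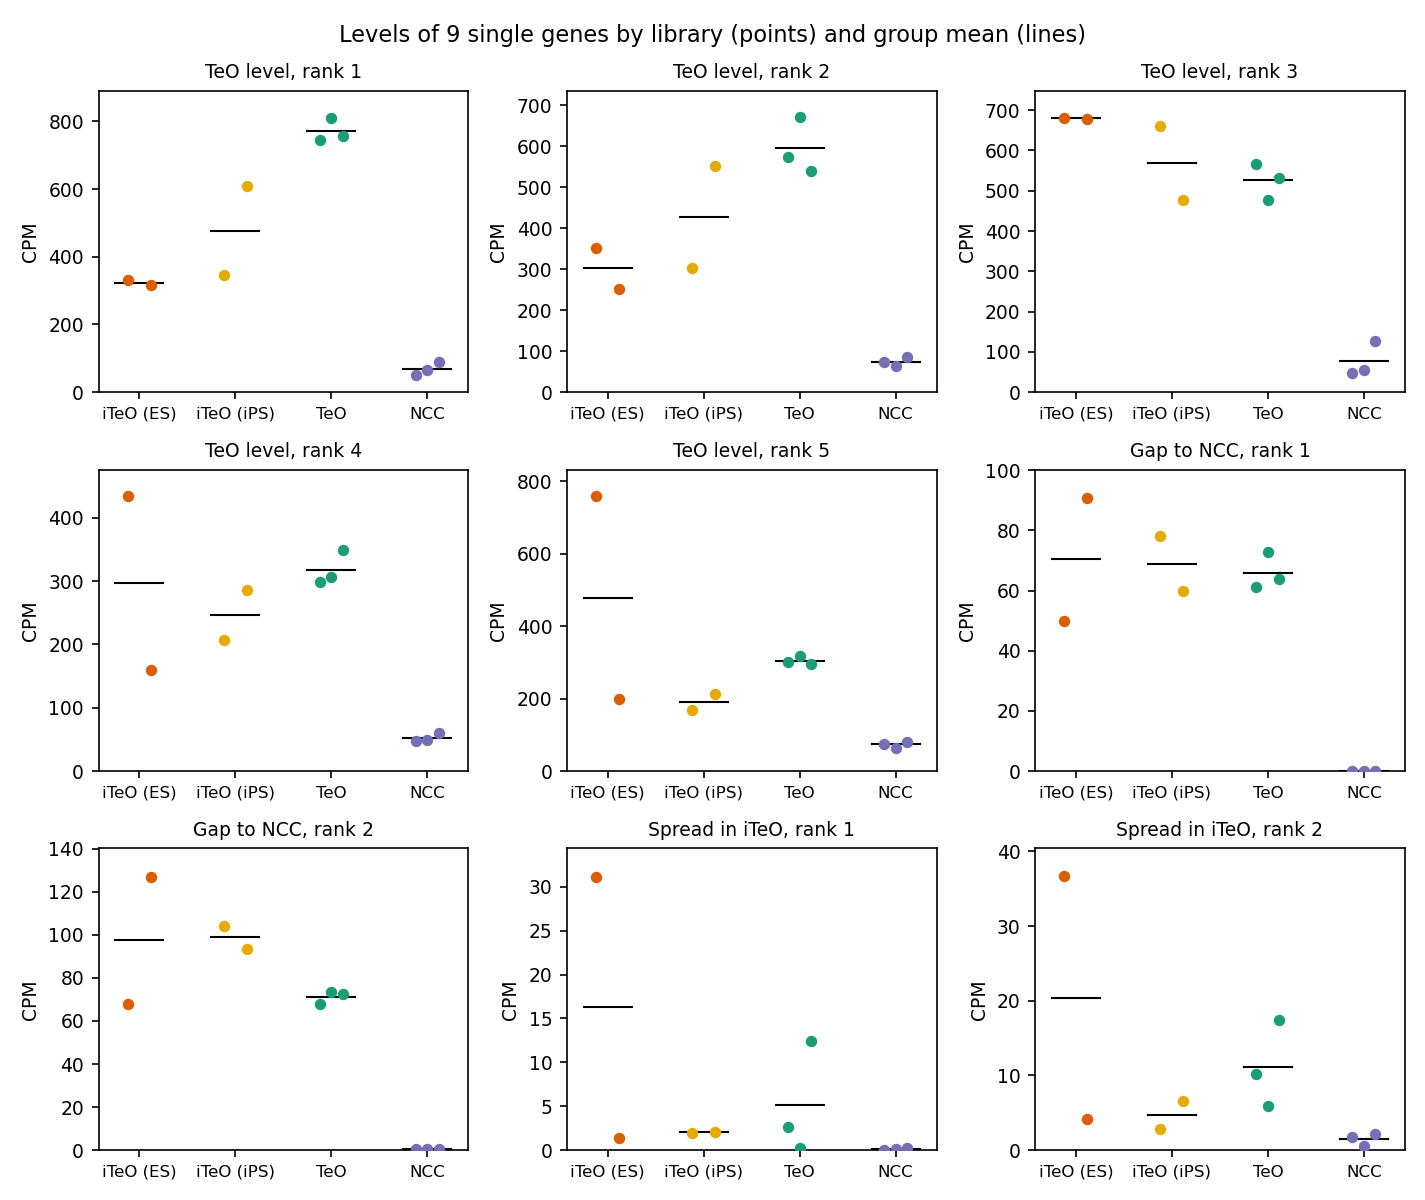
CPM by library (points) and group mean (lines) for 9 members, the 5 with the highest TeO mean, the 2 with the widest gap to NCC and the 2 with the widest spread among iTeO libraries. The NCC points are lowest in every panel, while iTeO (ES) replicate 1 (left point of the first column) is far above the other iTeO libraries in the rank 5 gene and in both genes of widest spread.

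Over all members, iTeO and TeO lay close together, and the direction of what difference there was depended on the scaling. With CPM the ratio of iTeO to TeO had a median of 1.11 (quartiles 0.915 and 1.36), and 100 members were above 1 and 48 below. With TMM scaling the median was 0.963, and 63 members were above 1 and 85 below. Relative to the median of all tested genes, 1.16 with CPM and 1.0 with TMM, the members were slightly below under either scaling. By CPM the 4 iTeO and the 3 TeO libraries overlapped for 111 members, were all higher in iTeO for 26 and all lower for 11. Over all tested genes the shares were 34.5% all higher and 10.8% all lower. After TMM scaling 117 members overlapped, 11 were all higher in iTeO and 20 all lower, with 19.8% and 21.4% over all tested genes. Since the rule limited this ratio, nothing follows from these counts about the members.

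**Figure D4:**
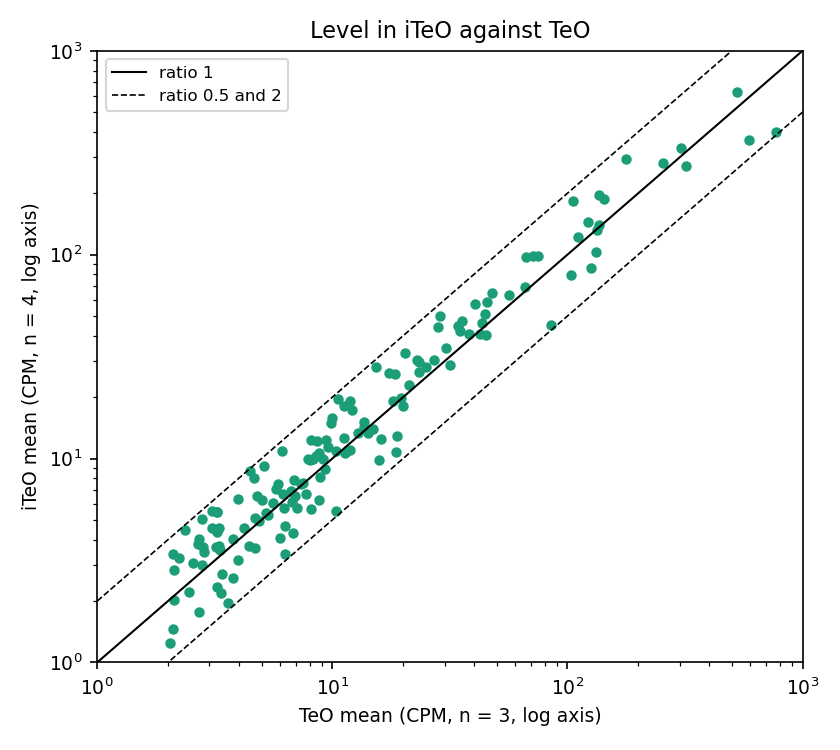
iTeO mean against TeO mean in CPM for the 148 genes, both on log axes. The points lie around the line of ratio 1 between the dashed lines at 0.5 and 2 that the rule set, from 2.04 to 771 CPM in TeO.

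The members varied more among iTeO libraries than among TeO libraries. The SD of log2(CPM + 0.5) had these medians over members, 0.36 in iTeO, 0.18 in TeO and 0.24 in NCC. In iTeO the SD spans both kinds of implant and more libraries than in TeO, so a difference between the kinds enters it. Over all tested genes the medians were 0.19, 0.13 and 0.13. With 1 in place of 0.5 the medians over members were 0.34, 0.17 and 0.17. By the rule members are low in NCC, so their NCC median is not compared at like levels with that of tested genes. The members are lower than many tested genes, so the comparison was also made within the quartile range of their TeO means. Between 4.67 and 28.2 CPM the median SD in iTeO was 0.34 for 74 members and 0.20 for 5117 tested genes, and in TeO it was 0.18 and 0.14. Of all members, 125 (84.5%) had a larger SD in iTeO than in TeO, against 69.4% of the tested genes. Without iTeO (ES) replicate 1 the median SD in iTeO was 0.25 over all members. Within the quartile range it was then 0.23 for members and 0.18 for tested genes. No other iTeO library was left out for this SD. How much of the decrease belongs to iTeO (ES) replicate 1 was therefore not tested.

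For many members iTeO (ES) replicate 1 was the low library. It had the lowest CPM of the 4 iTeO libraries for 75 members (50.7%), against 26.9% of all tested genes, and the highest for 26 members (17.6%), against 31.1%. By contrast, iTeO (iPS) replicate 1 was the lowest for 16 members (10.8%), against 27.7% of tested genes. The count for iTeO (ES) replicate 1 was 75 with TMM scaling as well. It was the lowest for 15 of the 30 members with at most 3 reads in each NCC library and for 60 of the other 118, so that it was the low library about equally often in both groups of members. Its median deviation from the mean of the 4 iTeO libraries was -0.19 on the log2 scale. Counts on human genes were raised in this library and also in iTeO (iPS) replicate 1, which was seldom low. The part of human cells or reads in the order of the libraries was not tested.

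**Figure D5:**
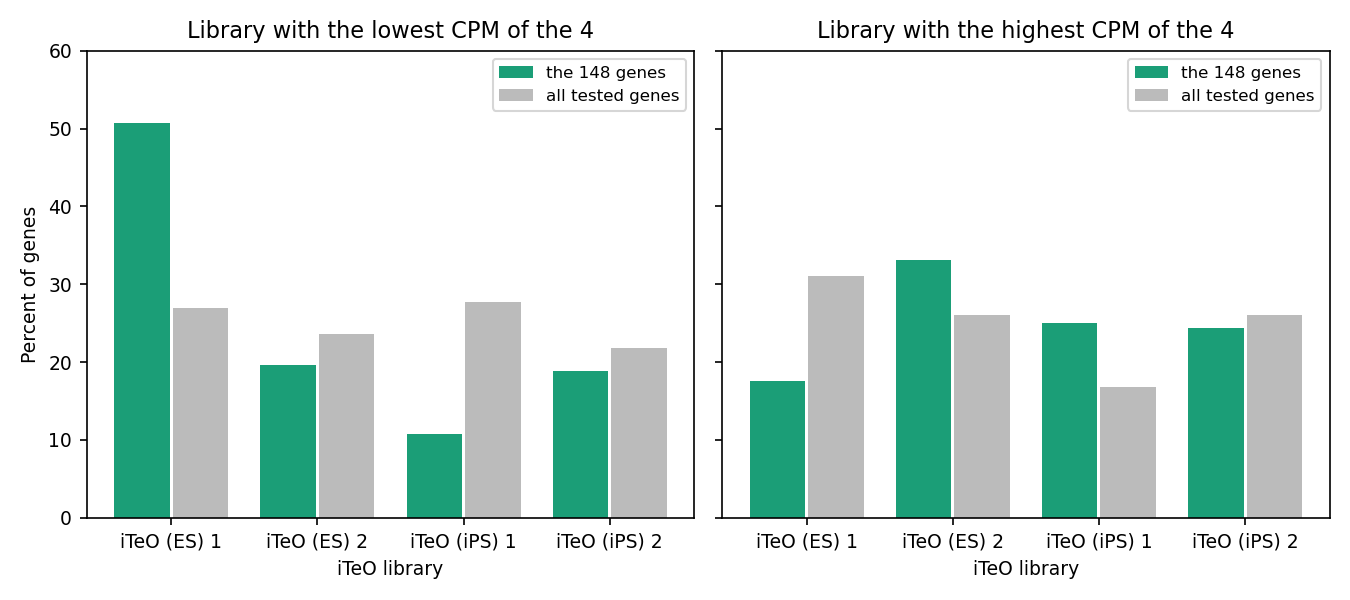
Percent of the 148 genes (green) and of the 13999 tested genes (grey) for which each of the 4 iTeO libraries had the lowest (left) or the highest (right) CPM. In the left panel iTeO (ES) replicate 1 reaches 50.7% among the 148 genes and 26.9% among the tested genes, and in the right panel it reaches 17.6% and 31.1%.

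In a smaller number of members the same library was far above the others. The member with the widest spread in iTeO had 31.2 and 1.43 CPM in iTeO (ES), 1.92 and 2.12 CPM in iTeO (iPS), 2.59, 0.275 and 12.5 CPM in TeO and 0, 0.0885 and 0.271 CPM in NCC. Its highest and lowest iTeO libraries differed 21.8-fold, and its lowest TeO library, with 3 reads, was barely above the highest NCC library. The gene of next widest spread had 36.7 and 4.19 CPM in iTeO (ES), 2.82 and 6.61 CPM in iTeO (iPS), 10.3, 5.88 and 17.5 CPM in TeO and 1.72, 0.531 and 2.17 CPM in NCC. In both genes, TeO replicate 3 was the highest TeO library. Their ratios of iTeO to TeO, 1.79 and 1.12, rested on iTeO (ES) replicate 1. Without that library the iTeO mean was under 0.5 times the TeO mean, 5.11 and 11.2 CPM, in either gene. Both thus met the rule only through it. The genes of rank 3 and 4 by spread ran through the iTeO libraries in the same order as the gene of widest spread. Rank 3 had 13.2 and 1.33 CPM in iTeO (ES), with 4.10 and 8.97 CPM in iTeO (iPS). Rank 4 had 69.5 and 8.38 CPM in iTeO (ES), with 28.0 and 57.8 CPM in iTeO (iPS). In all 3 of these genes iTeO (ES) replicate 1 was the highest and iTeO (ES) replicate 2 the lowest library, whereas iTeO (iPS) replicate 1 was the lowest for the gene of rank 2. For the median member the highest iTeO library was 1.81 times the lowest.

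The source of the implanted cells, iTeO (ES) against iTeO (iPS), was not a criterion of the rule and was tested. The counts below are not free of the rule, however. Every iTeO library had to lie above NCC, so a gene at the cortex level in either kind of iTeO could not be a member. The tested genes set beside the members had no such limit. In a fit with both kinds of iTeO as separate groups beside TeO and NCC, 0 of the 148 members were called, that is, reached an adjusted p under 0.05 together with a log2 fold change beyond 1 in size (quasi-likelihood test of edgeR, Benjamini-Hochberg adjustment over 13999 genes, lowest adjusted p = 0.284 among members), where 0.0143% of all tested genes were called. At an unadjusted p under 0.05 there were 15 members, against 9.18% of all tested genes, with 2 higher in iTeO (ES) and 13 higher in iTeO (iPS). Over all tested genes, 4.91% and 4.27% passed in these directions. The median log2 fold change of the members was -0.10, and 90 of 148 were below 0, against 48.2% of the tested genes. Both iTeO (ES) libraries were below both iTeO (iPS) libraries for 27 members and above them for 14, with 14.4% and 18.2% over all tested genes. The low values of iTeO (ES) replicate 1 enter all of these counts.

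That no member was called does not show that the kinds of iTeO were alike. With 2 libraries each, the standard error of the log2 fold change had a median of 0.30 over members and 0.18 over all tested genes. The 95% interval of the difference stayed within 1 on the log2 scale for 85 members and reached further for 63, while it stayed within 1 for 76.0% of all tested genes. With DESeq2, 1 member (0.676%) was called, against 0.286% of all tested genes. It was ENSGALG00000010259, named after its values were seen. It had 12.8 and 10.5 CPM in iTeO (ES), 4.48 and 2.24 CPM in iTeO (iPS), 11.6, 5.51 and 5.08 CPM in TeO and 1.21, 0.973 and 1.44 CPM in NCC. The kinds of iTeO did not overlap, and its log2 fold change was 1.79 (standard error 0.43, adjusted p = 0.291 from edgeR). Without iTeO (ES) replicate 1, 1 member was called, against 0.46% of all tested genes, and without iTeO (ES) replicate 2, 4 members (2.7%) were, against 0.69%. These are fits in which the remaining iTeO (ES) library is assumed to vary like the other groups. The contrast also coincides with another difference between libraries. Some chicken genes were nearly off in one TeO library, with no more than 3 reads, and above 5 CPM in another. Of these 21 genes, 20 had both iTeO (ES) libraries above both iTeO (iPS) libraries, so the source of the cells and the split of the libraries by these genes cannot be told apart. One member was among the 21 genes, the one with the widest spread in iTeO. It was not among the 20, with 31.2 and 1.43 CPM in iTeO (ES) and 1.92 and 2.12 CPM in iTeO (iPS).

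Members often stood side by side in the table of counts. Of the 148, 23 (15.5%) had another member in the row directly before or after, against 1.26% of 13851 other tested genes with a member there. Within 5 rows the shares were 30.4% and 6.25%. The neighbours formed 10 pairs and 1 run of 3. The run of 3 had TeO means of 66.7 ± 4.30, 143 ± 9.83 and 111 ± 9.08 CPM (SD, n = 3) and NCC means of 14.0 ± 2.33, 26.8 ± 0.470 and 21.3 ± 3.96 CPM (SD, n = 3). Their ratios of iTeO to TeO were 1.46, 1.32 and 1.10. In another pair the members had TeO means of 28.0 ± 2.68 and 106 ± 9.61 CPM and NCC means of 0.0602 ± 0.104 and 1.76 ± 0.683 CPM, and their ratios of iTeO to TeO were 1.57 and 1.73. One pair had no read in NCC for either gene, with TeO means of 3.24 ± 0.455 and 2.78 ± 0.455 CPM. Not all pairs were alike, as in one with 6.94 and 104 CPM in TeO the first gene was at 0 in NCC and the second at 19.8 CPM. Coordinates of the genes were not used here, and the strand setting of the counting is not stated, so a read of overlapping neighbours could be counted for the wrong one. The part of shared reads in these runs was not tested.

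The choice of members was looked at in libraries that did not take part in it. The rule was applied to 9 libraries at a time, and the genes it gave were read in the one left out. Between 139 and 150 genes were chosen without an iTeO or TeO library. In the TeO library left out, 91.9% to 95.2% of them were at least 4 times the NCC mean, against 2.41% to 2.7% of all tested genes. Of the iTeO libraries, the second ES replicate gave a share of 84.2%, against 3.95% of all tested genes. The iPS replicates gave 87.6% and 92.8%, against 3.41% and 3.89% of tested genes. The share was lowest in iTeO (ES) replicate 1, with 121 of 150 genes (80.7%), against 4.55% of tested genes. All 150 were above the highest NCC library there, as 56.1% of all tested genes were. The library left out was set against NCC libraries that had helped to choose the genes, so these shares are not fully independent. Without an NCC library the rule gave 149, 154 and 165 genes for replicates 1, 2 and 3. In the NCC library left out, 87.9%, 82.5% and 78.8% of them were such that both tectal means were at least 4 times that library, against 2.03% to 2.66% of tested genes. The tectal means came from libraries that had chosen the genes, so these shares are not fully independent either. The lowest of these shares belonged to NCC replicate 3, the library with the highest summed level of the members.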

How the data were processed

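The deposited values are raw counts of uniquely mapped reads per gene, which the authors made by trimming with Trimmomatic, alignment with STAR 2.7.1a to human (GRCh38) and chicken (galgal5) genomes joined in one index and counting with featureCounts. Reads of equal similarity to both genomes were excluded, and no normalization was applied to the counts.

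Groups were taken from the labels. CPM were computed over chicken genes, and members, gene lists and rules were chosen with earlier results of these data known. The lists of tectal, telencephalic, glial and other marker genes could not be matched to identifiers and gave no result. Genes were to be named by symbol, or otherwise by at most 2 identifiers in each direction per comparison, those with the largest ratio of the lowest tectal to the highest NCC value.

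Tests used edgeR 4.0.16 in R 4.3.3 (TMM, filterByExpr by tissue, robust quasi-likelihood fit), with all 10 libraries in 4 groups for iTeO (ES) against iTeO (iPS), and a Benjamini-Hochberg adjusted p under 0.05 together with a log2 fold change beyond 1 in size as calls. Tests between tectum and NCC and between iTeO and TeO are not given, since these contrasts chose the members. The procedure was tested on simulated data with the same spread of a gene in all groups, so a group of wider spread was not covered. Standard errors were derived from the log2 fold change and the F statistic. Replicates were not copies of each other. The chi-square per degree of freedom was 16.8 for the iTeO (ES) pair and 4.75 to 7.64 for the other pairs. In the test, all groups share an estimate of the spread of a gene. Alternatives were DESeq2 1.42.0, its size factors, no filter on low counts, the replicate number as a block, other limits of the rule and each library left out in turn.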

Additional observations from a re-analysis of the deposited data

Results flagged for a closer look

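Among the members described singly, 5 had an iTeO library far from the other 3, with the gap to the nearest library divided by the range above Dixon's 95% critical value for 4 samples. Chance flags about 1 in 20 such groups. The genes of widest and next widest spread were picked by that spread, so this rate does not apply to them. The ratio was 0.897 for the gene of highest TeO mean, where iTeO (iPS) replicate 2 was the highest, and 0.898 for the gene of rank 3, where the same library was the lowest. It was 0.924 for the gene of rank 5, 0.977 for the gene of widest spread in iTeO and 0.888 for the gene of next widest spread, with iTeO (ES) replicate 1 as the highest in all 3. Over all 148 members 16 (10.8%) passed this value, against 5.84% of the tested genes, and iTeO (ES) replicate 1 was the library that stood apart in 11 of the 16, as the highest in 6 and the lowest in 5.

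Counts on human genes enter neither the CPM nor any test here. They were 0.371% of the total in the first ES replicate of iTeO and 0.299% in the first iPS replicate. These shares were above the 0.123% to 0.137% of the TeO and NCC libraries.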

How the results depend on the processing

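The number of genes that met the rule was 244 with a limit of 3-fold over NCC and 89 with 6-fold, and between 107 and 189 under the other limits and scalings. With TMM it was 128, of which 126 were among the 148. With each library left out in turn it was between 139 and 165. The median ratio of iTeO to TeO over members reversed from 1.11 to 0.963 with TMM. Between iTeO (ES) and iTeO (iPS), 2 of 13999 genes were called, 40 with DESeq2, 59 when only the 4 iTeO libraries were fitted, and between 0 (without iTeO (iPS) replicate 2) and 96 (without iTeO (ES) replicate 2) with each library left out. Of the members, 0 were called in the main test, 1 with DESeq2 and between 0 and 4 with each library left out. Whether the replicate numbers pair the libraries is not known. The deviations of same-numbered TeO and NCC libraries correlated at 0.327, -0.235 and 0.336, and those of differently numbered ones at -0.514 to 0.326. With so few libraries per group these values cannot decide it. With a replicate block, there was 1 call between the kinds of iTeO. With crossed numbers, added after the data were seen because the same-numbered iTeO libraries correlated at -0.111, it was 1 gene. No member was called under either block. The other counts moved by less than 1.5 times. The causes were not tested. Precision was limited to 2 libraries per kind of iTeO, and 5 members had under 10 reads in a tectal library.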
